A study of Mus musculus with 8 samples.

Results

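The mammalian proteasome, the complex that degrades ubiquitin-tagged proteins, was followed here through its subunit and assembly genes in hearts of TAZG197V and wild-type (WT) mice. Members were all genes whose symbol begins with Psma, Psmb, Psmc, Psmd, Psme, Psmf or Psmg followed by a number. Of 54 such symbols, 4 pseudogene names were dropped and 3 genes with a mean raw count under 50 were set aside, which left 47 members of 55471 genes in the files. One of them, Psmc3ip, meets the naming rule but encodes a factor of meiotic recombination and no part of the proteasome. The study sequenced RNA from a piece of heart of 4 WT and 4 TAZG197V mice, all male and 14 weeks old. TAZG197V mice carry a Barth syndrome patient point mutation in Tafazzin, the mitochondrial transacylase that matures cardiolipin. The mutation was introduced by CRISPR/Cas9 into C57BL/6N zygotes, and founders were crossed to C57BL6/J for 2 generations. The gene is X-linked, so the mutant males were hemizygous, and every cell of the animal, not the heart muscle alone, carries the change.

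The proteasome has a barrel-shaped 20S core, made of outer rings of alpha subunits and inner rings of beta subunits, some of which cut proteins. A 19S particle binds ubiquitin-tagged proteins, removes the ubiquitin and threads the unfolded chain into the core with its ring of ATPases. Other caps, PA28 and PA200, can bind the core in place of the 19S particle, and dedicated chaperones help the core and the 19S base assemble. In the immunoproteasome, which immune cells and interferon-treated cells form, the cutting subunits are replaced by Psmb8, Psmb9 and Psmb10. Heart muscle depends on the proteasome for the turnover of contractile and mitochondrial proteins.

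Total counts per library ranged from 23055689 to 36301031. Heart muscle markers were abundant in every library, with summed levels of Myh6, Tnnt2, Actc1, Ryr2, Myl2 and Tnni3 between 54370 and 60976 CPM (counts relative to the library total, scaled by TMM) in WT and between 45493 and 49684 CPM in TAZG197V. Taz itself, whose transcript a point mutation need not remove, lay between 58.7 and 63.8 CPM in WT and between 44.3 and 50.4 CPM in TAZG197V. The count of a gene cannot check which base it carries. The library of WT mouse 4 stood apart, with 5.00% of its counts on haemoglobin genes against 0.0213% to 0.096% in the other 7. The labels number the samples of each genotype from 1 to 4, and p-values measure the spread between these 8 samples. These are bulk heart samples, in which fewer cells of a type and less RNA per cell cannot be told apart.

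The promoters below show the genes on which the contrast within the family turned. Psmb5 and Psmb6 encode constitutive cutting subunits, Psmb10 is the immunoproteasome subunit that was higher in TAZG197V, and Psme1 and Psme4 are the cap genes that were lower. Each runs from 250 bases before the RefSeq start of the gene to 30 bases after it, 5′ to 3′ on the strand of the gene, on GRCm38.p6. Capitals mark matches, on either strand, to TGACNNNGC, the core of the antioxidant response element that NRF1 and NRF2 bind, or to the core of the interferon-stimulated response element (ISRE), TTTC followed by 2 bases of any kind and TTTC again.
Psmb5: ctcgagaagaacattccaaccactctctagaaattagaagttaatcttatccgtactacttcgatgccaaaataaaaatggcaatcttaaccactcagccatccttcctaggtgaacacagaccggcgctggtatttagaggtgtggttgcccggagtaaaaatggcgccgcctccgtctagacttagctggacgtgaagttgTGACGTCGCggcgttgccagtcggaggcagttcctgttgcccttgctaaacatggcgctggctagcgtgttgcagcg
Psmb6: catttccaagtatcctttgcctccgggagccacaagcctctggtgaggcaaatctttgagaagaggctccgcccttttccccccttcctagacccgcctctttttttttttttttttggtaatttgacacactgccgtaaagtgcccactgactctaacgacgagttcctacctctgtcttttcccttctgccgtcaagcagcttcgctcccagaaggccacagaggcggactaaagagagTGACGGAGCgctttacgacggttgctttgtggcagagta
Psmb10: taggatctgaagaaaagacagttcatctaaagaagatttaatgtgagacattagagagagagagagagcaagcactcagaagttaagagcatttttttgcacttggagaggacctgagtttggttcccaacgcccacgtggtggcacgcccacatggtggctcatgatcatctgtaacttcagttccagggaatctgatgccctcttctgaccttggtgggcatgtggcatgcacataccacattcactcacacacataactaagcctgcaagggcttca
Psme1: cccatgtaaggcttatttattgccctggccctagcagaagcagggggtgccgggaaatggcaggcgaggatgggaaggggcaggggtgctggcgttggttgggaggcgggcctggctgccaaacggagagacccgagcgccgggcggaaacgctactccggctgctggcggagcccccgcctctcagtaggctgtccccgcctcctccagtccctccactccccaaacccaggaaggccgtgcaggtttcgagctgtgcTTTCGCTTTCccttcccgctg
Psme4: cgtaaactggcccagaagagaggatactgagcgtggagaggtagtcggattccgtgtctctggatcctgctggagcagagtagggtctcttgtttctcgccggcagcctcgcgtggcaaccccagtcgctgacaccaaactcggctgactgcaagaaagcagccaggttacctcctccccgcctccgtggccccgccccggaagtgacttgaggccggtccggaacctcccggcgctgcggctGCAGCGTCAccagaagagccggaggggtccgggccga
The Psmb5 stretch is chr14:54617966-54618245 on the minus strand and that of Psmb6 is chr11:70525107-70525386 on the plus strand. Psmb10 is shown at chr8:105938363-105938642 on the minus strand, Psme1 at chr14:55578244-55578523 and Psme4 at chr11:30771525-30771804, both on the plus strand. The TGACNNNGC match begins 47 bases before the start in Psmb5, 9 bases before it in Psmb6 and, read on the opposite strand, 7 bases before it in Psme4. Psme1 holds the ISRE core from base 10 after its start, and the Psmb10 stretch holds neither.

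Over the whole family, proteasome RNA was higher in TAZG197V hearts. Of the 47 members, 32 were called higher and 2 were called lower, while 13 were not called. A call here means an adjusted p under 0.05 in edgeR's quasi-likelihood test with Benjamini-Hochberg adjustment over 15084 genes, a log2 fold change beyond 0.20 in either direction and a mean scaled count of at least 50. Among all genes tested, 18.5% were called higher and 15.1% were called lower. Only 12355 of these genes, all 47 members among them, had the mean scaled count that a call needs. Of the 12355, 2785 were called higher and 2273 lower. The median log2 fold change (TAZG197V over WT) of the members was 0.33, against -0.01 for all genes tested, and 42 of 47 values were positive. In 30 members all 4 TAZG197V libraries lay above all 4 WT libraries, and in 2 all lay below, while the same held for 19.3% and 13.9% of all genes tested. Among the 12355 genes, 2669 lay above and 1867 below in this way. With a fold threshold of 1.5, 9 members were called higher and 1, Psme1, lower, beside 6.62% and 5.60% of all genes tested. All 47 members passed the filter on low counts. Together they took 0.33% ± 0.0142 of all counts in WT hearts and 0.408% ± 0.0217 in the mutant hearts (SD, n = 4), a ratio of 1.24.

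Members called higher came from both the core and the 19S particle, and no cap gene was among them. The changes were modest for most genes and ranged from -0.95 for Psme1 to 1.00 for Psmg1 on the log2 scale. Without Psmc3ip, with 2.02 ± 0.39 CPM in WT against 2.32 ± 0.219 CPM in the mutant (log2 fold change 0.15 ± 0.17, SE), the counts were 32 and 2 of 46.

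**Figure D1:**
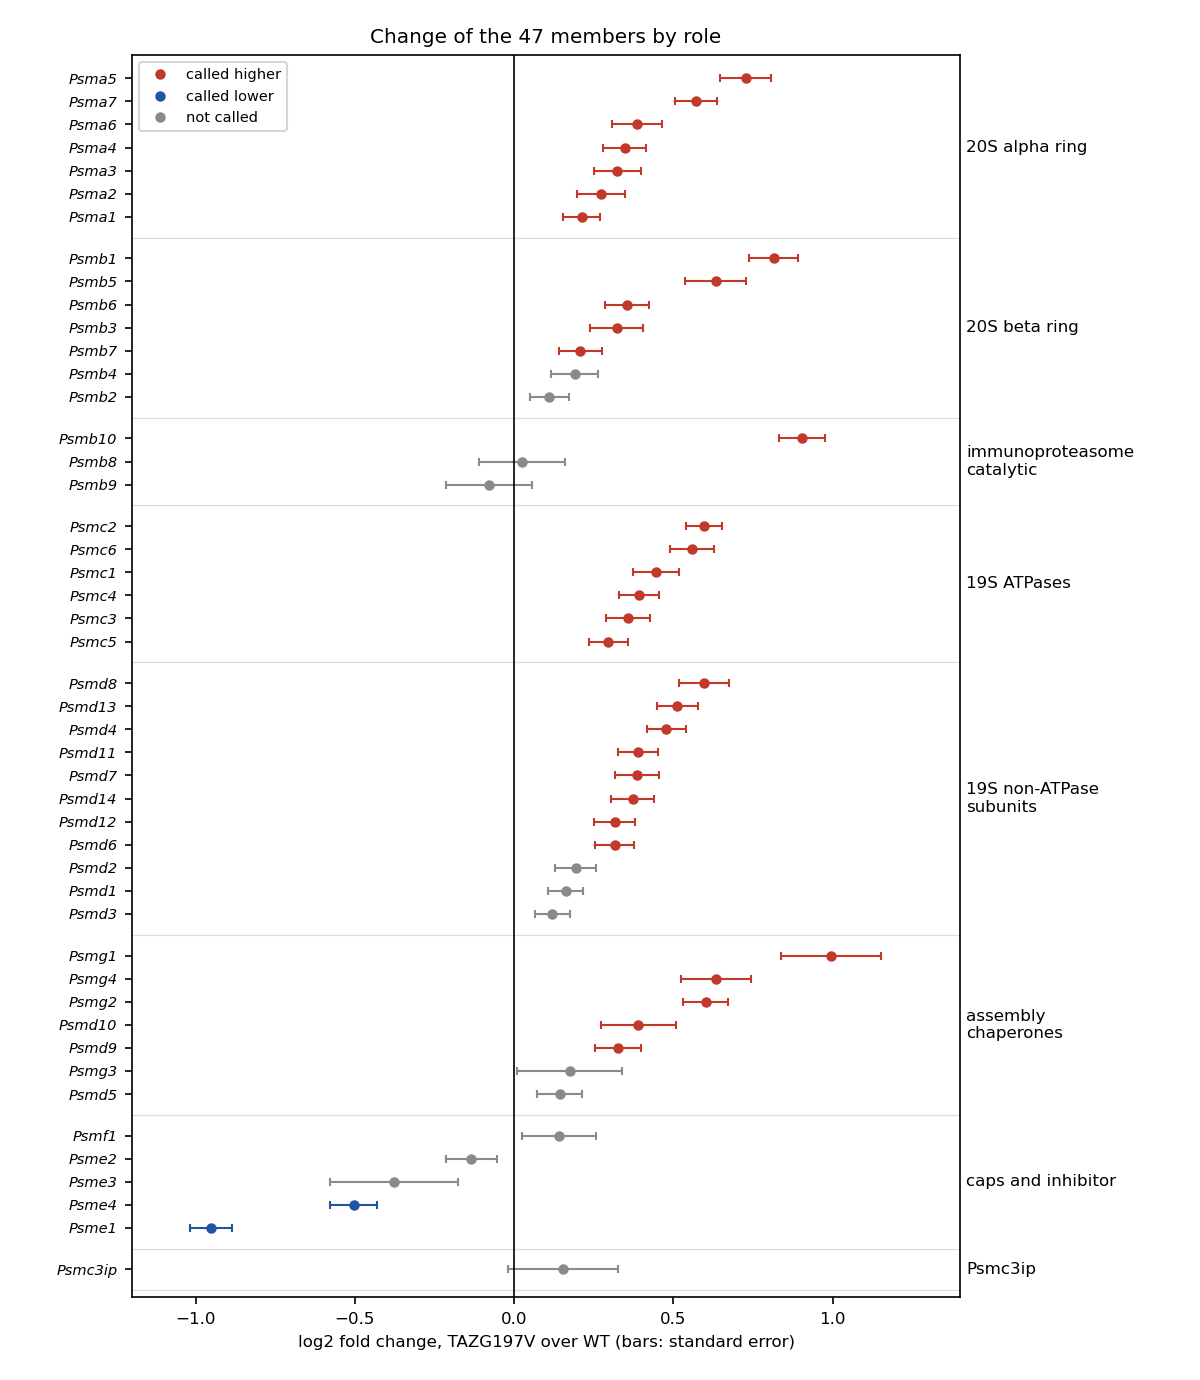
Log2 fold change of each of the 47 members (TAZG197V over WT, x axis), grouped by role, with bars for the standard error and colours for members called higher, called lower or not called. The 14 subunits of the constitutive 20S core and the 17 of the 19S particle all lie to the right of 0, and Psme1 and Psme4 lie farthest to the left.

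The alpha ring forms the gate of the core and the docking surface for every cap. All 7 alpha genes were called higher, with a median log2 fold change of 0.35. Their summed level was 463, 429, 463 and 368 CPM in the 4 WT libraries and 551, 608, 553 and 503 CPM in the 4 TAZG197V libraries. The sums did not overlap between genotypes, and the library of WT mouse 4 was the lowest of the 8. The largest change was in Psma5, at 12.2, 11.3, 11.7 and 9.64 CPM in WT and 19.4, 20.4, 17.8 and 16.1 CPM in TAZG197V. All mutant libraries were above all WT libraries, a 1.65-fold difference (log2 fold change 0.73 ± 0.08, SE, edgeR adjusted p = 0.000279). Psma7 rose 1.49-fold, and Psma6, the alpha gene with the highest level per length (76.7 ± 10.3 RPKM in WT), rose 1.31-fold. Psma4, Psma3 and Psma2 rose 1.27-fold, 1.25-fold and 1.21-fold. Psma1 was just past the fold threshold at 1.16-fold, and its libraries overlapped. The calls of Psma1 and Psma2 held in 9 and 12 of 17 other fits. A limit applies to Psma5, since 50.0% of its 50-base windows also occur in other annotated transcripts, all of them named as predicted or uncharacterised genes, and no source says how reads that align to several places were treated.

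The inner beta ring holds the cutting sites in Psmb5 (chymotrypsin-like activity), Psmb6 (caspase-like) and Psmb7 (trypsin-like), while Psmb1, Psmb2, Psmb3 and Psmb4 are structural. Of these 7 constitutive genes, 5 were called higher, with a median log2 fold change of 0.32. Psmb1 changed most, at 105, 98.9, 107 and 80.0 CPM in WT and 166, 195, 166 and 151 CPM in TAZG197V. The groups were far apart, with a log2 fold change of 0.81 ± 0.08 (SE, edgeR adjusted p = 0.000141). Psmb5 (chromosome 14, 54614119 to 54618022 on GRCm38) was at 31.1, 27.1, 35.6 and 23.3 CPM in WT and at 46.0, 51.0, 44.7 and 39.6 CPM in TAZG197V. Every mutant library was above every WT library, a 1.55-fold difference (log2 fold change 0.63 ± 0.09, SE, edgeR adjusted p = 0.00132). Psmb5 is also the member with the most shared sequence, since 54.1% of its 50-base windows occur in other transcripts, the processed copy Psmb5-ps among them, so its value is uncertain.

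The other cutting subunits moved less. Psmb6 was at 102, 91.4, 102 and 79.6 CPM in WT and at 117, 136, 120 and 105 CPM in TAZG197V, and the groups did not overlap (log2 fold change 0.35 ± 0.07, SE, edgeR adjusted p = 0.00488). Psmb7 was at 104, 93.4, 105 and 81.5 CPM in WT and at 113, 116, 110 and 102 CPM in TAZG197V. The lowest mutant library fell below the 2 highest WT libraries. Its log2 fold change of 0.21 ± 0.07 (SE) passed narrowly, with an edgeR adjusted p of 0.0413, and the call held in only 3 of 17 other fits. Psmb3 rose 1.25-fold, with a call that held in 14 of the 17. Psmb2 was at 72.2 ± 6.72 CPM in WT and 77.5 ± 6.19 CPM in TAZG197V, and Psmb4 at 112 ± 12.7 and 127 ± 13.7 CPM. Neither passed the test (edgeR adjusted p = 0.185 and 0.0764), and the libraries of both overlapped.

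The 3 immunoproteasome cutting subunits did not move together. Psmb10, which replaces Psmb7, lies on chromosome 8 (105935735 to 105938444) and was at 35.3, 34.6, 38.5 and 27.3 CPM in WT and at 61.7, 71.2, 64.9 and 53.7 CPM in TAZG197V. All mutant libraries exceeded all WT libraries, a 1.87-fold difference (log2 fold change 0.90 ± 0.07, SE, edgeR adjusted p = 6.27e-05). Psmb8, which replaces Psmb5, was at 9.47, 7.78, 8.19 and 7.41 CPM in WT and at 6.94, 9.88, 10.1 and 6.93 CPM in TAZG197V. The mutant libraries split to either side of the WT range, and the log2 fold change was 0.03 ± 0.14 (SE, edgeR adjusted p = 0.898). Psmb9, which replaces Psmb6, was at 7.85, 7.47, 7.57 and 8.13 CPM in WT and at 6.36, 9.23, 8.45 and 5.98 CPM in TAZG197V. The same mutant libraries, numbers 2 and 3, were the higher ones, and the log2 fold change was -0.08 ± 0.13 (SE, edgeR adjusted p = 0.671). Psmb11, the thymus-specific cutting subunit, had 0 counts in each library, which allows up to 3 counts per library, or 0.0826 to 0.13 CPM, for counting error only.

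Per length of transcript, Psmb10 was the abundant immunoproteasome gene of these hearts. In WT it stood at 19.9 ± 2.78 RPKM, beside 2.43 ± 0.266 RPKM for Psmb8 and 2.12 ± 0.0801 RPKM for Psmb9 (SD, n = 4). The constitutive counterparts were at 28.05 ± 3.21 RPKM for Psmb7, 32.5 ± 5.86 RPKM for Psmb5 and 50.0 ± 5.65 RPKM for Psmb6. Lengths are those of all annotated exons joined, so levels between genes are rough. Exons of Psmb8, Psmb9 and Psmb7 overlap those of Gm20496, Tap1 and Nek6 for 14.7%, 5.8% and 11.8% of their bases, and the strand setting of the counting was not stated.

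Ratios within a library show the balance of alternative subunits with no part for library scaling. The log2 ratio of length-scaled counts of Psmb10 to Psmb7 was -0.55, -0.43, -0.44 and -0.57 in WT and 0.14, 0.30, 0.24 and 0.08 in TAZG197V. All mutant libraries were above all WT libraries, a difference of 0.69. The sign of the ratio itself depends on the joined exon lengths, and in CPM Psmb10 lay below Psmb7 in all 8 libraries. Psmb8 to Psmb5 moved the other way, from -3.62, -3.71, -4.03 and -3.56 in WT to -4.64, -4.28, -4.06 and -4.42 in TAZG197V. The groups came close, with the lowest WT library next to the highest mutant one, and the difference was -0.62. Psmb9 to Psmb6 was -4.66, -4.58, -4.72 and -4.26 in WT and -5.17, -4.84, -4.80 and -5.10 in TAZG197V, a difference of -0.42 without overlap. In each of these 3 ratios the exact permutation test over 70 splits gave p = 0.0286 (two-sided), the smallest that 4 against 4 mice allow, and 0.0286 after adjustment over the 4 ratios tested. The Psmb8 and Psmb9 ratios fell while the levels of Psmb8 and Psmb9 themselves did not pass the test, and their constitutive counterparts rose.

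**Figure D2:**
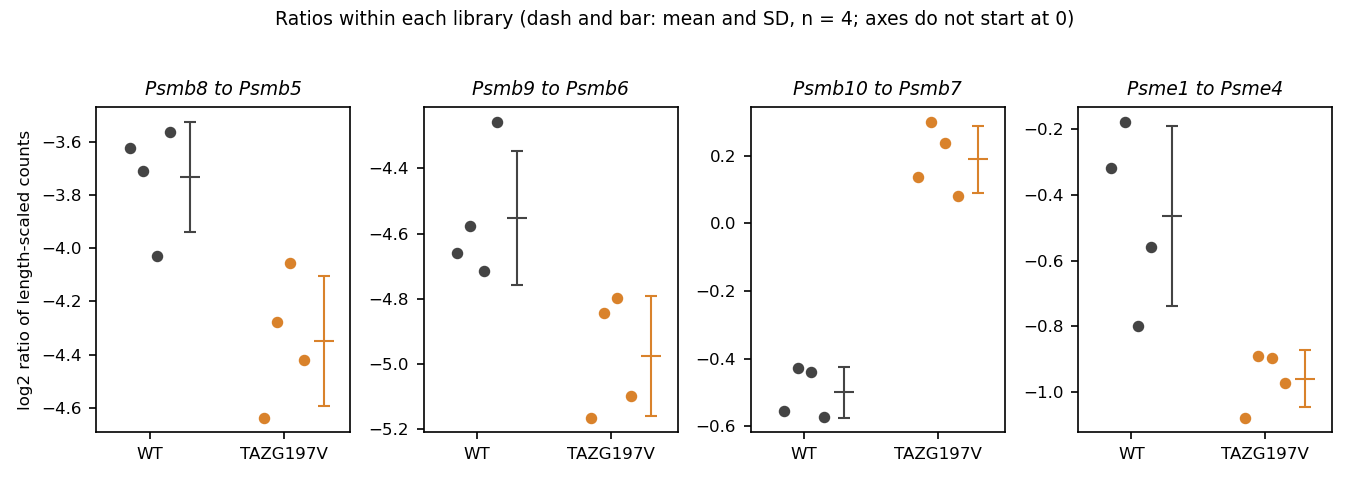
Log2 ratios of length-scaled counts within each library for Psmb8 to Psmb5, Psmb9 to Psmb6, Psmb10 to Psmb7 and Psme1 to Psme4 (y axes, which do not start at 0), with 1 point per library and the mean and SD of 4 mice beside them. No ratio overlaps between genotypes, and only Psmb10 to Psmb7 is higher in TAZG197V.

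No marker of immune cells was called higher beside Psmb10. Of 5 general leukocyte markers none was called, and their summed level was 47.3 to 55.1 CPM in WT mice 1 to 3, 184 CPM in WT mouse 4 and 42.6 to 68.2 CPM in TAZG197V. None of 6 macrophage markers was called, with sums of 262 to 358 CPM in WT and 244 to 387 CPM in TAZG197V. Of 7 lymphocyte markers 3 had enough counts to be tested, and 2 were called lower, Ms4a1 among them. The sum of the 7 ran from 2.75 to 5.48 CPM in WT mice 1 to 3, reached 63.9 CPM in the blood-rich library of WT mouse 4 and ran from 2.09 to 3.19 CPM in TAZG197V, and without WT mouse 4 no lymphocyte marker was called. Genes of antigen processing and the interferon response, with which the immunoproteasome is usually induced, showed 1 called higher and 3 called lower of 13. The shares over all genes tested were 18.5% and 15.1%. Ifit3, an interferon-induced gene, rose (log2 fold change 0.70 ± 0.18, SE, edgeR adjusted p = 0.0174), but was not called without WT mouse 4 (0.37, edgeR adjusted p = 0.196). Erap1, a peptide-trimming protease, fell by 0.39 on the log2 scale, Irf1, a transcription factor, by 0.28, and Tapbp, a peptide-loading chaperone, by 0.23. Tap1, which shares a promoter region with Psmb9, had mean levels of 12.1 and 12.2 CPM in WT and TAZG197V. Over 17 other fits, 0 to 3 of the list were called higher and 1 to 3 lower, with 0 and 3 when WT mouse 4 was left out.

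The 6 ATPases of the 19S base unfold the substrate and open the gate of the core. All 6 were called higher without overlap between genotypes, with a median log2 fold change of 0.42, the highest of the subunit groups. Their summed level was 652, 614, 668 and 553 CPM in WT and 842, 901, 824 and 795 CPM in TAZG197V. Psmc2 rose 1.51-fold, from 96.6 ± 5.68 to 146 ± 12.1 CPM (SD, n = 4, edgeR adjusted p = 0.000152). Psmc6 rose 1.47-fold and Psmc1 1.36-fold. Psmc4, Psmc3 and Psmc5 rose 1.31-fold, 1.28-fold and 1.23-fold. The order of the ATPases by change was not their order by level, since Psmc3 and Psmc5 had the highest levels per length in WT (68.3 ± 7.80 and 64.6 ± 4.14 RPKM) and Psmc2 the lowest (19.2 ± 1.13 RPKM).

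The non-ATPase subunits of the 19S particle receive and trim the ubiquitin chain. Of 11 genes, 8 were called higher and all 11 log2 fold changes were positive (median 0.37). Psmd4, a ubiquitin receptor, was at 84.9, 81.7, 89.5 and 82.1 CPM in WT and at 121, 130, 112 and 110 CPM in TAZG197V. The groups were well separated, with a log2 fold change of 0.48 ± 0.06 (SE, edgeR adjusted p = 0.000652). Psmd14, the deubiquitinase of the lid, went from 40.7 ± 1.73 to 52.4 ± 3.44 CPM, a 1.29-fold rise (edgeR adjusted p = 0.00309), and its structural partner Psmd7 rose 1.31-fold. The lid subunits Psmd8, Psmd13, Psmd11, Psmd12 and Psmd6 rose 1.51-fold, 1.43-fold, 1.31-fold, 1.24-fold and 1.24-fold. The large scaffold subunits of the base moved little. Psmd2 was at 185 ± 14.0 CPM in WT and 211 ± 4.08 CPM in TAZG197V, and Psmd1 at 134 ± 5.18 and 150 ± 4.13 CPM. Both separated by genotype and had an edgeR adjusted p under the threshold (0.0461 and 0.0469), but at 1.14-fold and 1.12-fold they missed the fold threshold. Psmd3, a lid subunit, was at 102 ± 5.90 and 111 ± 6.91 CPM with overlap (edgeR adjusted p = 0.121).

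Assembly chaperones bind unfinished proteasomes and leave the finished one. Of 7, 5 were called higher (median log2 fold change 0.39), and this group held the largest change of the family. Psmg1 (chromosome 16, 95979933 to 95990960), which with Psmg2 starts the alpha ring, was at 8.49, 8.49, 16.3 and 13.0 CPM in WT and at 26.4, 27.7, 23.1 and 19.4 CPM in TAZG197V. The groups did not overlap, but WT mice 1 and 2 were lower than WT mice 3 and 4. The log2 fold change was 1.00 ± 0.16 (SE, edgeR adjusted p = 0.00169). Libraries 1 and 2 of each genotype ran on lane 7 of the sequencer and libraries 3 and 4 on lane 8, as the deposited names show. The difference of mean log2 CPM of Psmg1 was 1.67 within lane 7 and 0.54 within lane 8, with 2 libraries a side. Psmg4, which with Psmg3 also helps the alpha ring, was at 5.99, 5.55, 5.98 and 4.78 CPM in WT and at 7.88, 10.4, 9.97 and 6.67 CPM in TAZG197V. All mutant libraries were above the WT libraries (log2 fold change 0.63 ± 0.11, SE, edgeR adjusted p = 0.00268). Psmg2 rose 1.52-fold, from 23.3 ± 1.95 to 35.8 ± 4.14 CPM. Psmg3 did not pass the test, at 4.04 ± 0.864 CPM in WT and 4.66 ± 0.522 CPM in TAZG197V.

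The chaperones of the 19S base, Psmd5, Psmd9 and Psmd10, act before the base meets the core. Psmd10 (gankyrin) rose 1.31-fold, from 9.52 ± 1.39 to 12.5 ± 0.96 CPM, with overlapping libraries and a call that held in 11 of 17 other fits. Psmd9 rose 1.25-fold, although 25.5% of its exon bases lie opposite the antisense gene Gm26745. Psmd5 was at 22.7 ± 1.09 and 24.8 ± 1.63 CPM (edgeR adjusted p = 0.146).

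The alternative caps held the only members called lower. Of 5 genes, the inhibitor included, none was called higher and 2 were called lower. Psme1 (chromosome 14, 55578123 to 55581529) encodes PA28 alpha, which with PA28 beta forms a cap that speeds peptide cutting without ATP. It was at 90.0, 82.4, 78.1 and 87.4 CPM in WT and at 42.9, 43.2, 46.0 and 43.3 CPM in TAZG197V. The mutant libraries lay within a narrow band at about 0.517 times the WT level (log2 fold change -0.95 ± 0.07, SE, edgeR adjusted p = 3.19e-05). Psme2, the gene of its partner PA28 beta, was at 17.3, 15.9, 15.5 and 14.3 CPM in WT and at 14.7, 16.5, 14.6 and 11.7 CPM in TAZG197V. These groups overlapped, with a log2 fold change of -0.13 ± 0.08 (SE, edgeR adjusted p = 0.213). Psme2 shares 28.3% of its 50-base windows with other transcripts, Psme2b among them. Per length the 2 PA28 genes stood at 38.2 ± 2.41 and 8.94 ± 0.692 RPKM in WT and at 19.8 and 8.15 RPKM in TAZG197V.

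Psme4 (chromosome 11, 30771726 to 30880361), which encodes the large single-chain cap PA200, was the most abundant cap gene. It was at 427, 354, 516 and 488 CPM in WT and at 343, 304, 325 and 322 CPM in TAZG197V. The lowest WT library lay just above the highest mutant one (log2 fold change -0.50 ± 0.07, SE, edgeR adjusted p = 0.00127). The difference of mean log2 CPM was -0.27 within lane 7 and -0.63 within lane 8, while that of Psme1 was -1.002 and -0.888. Both genes were called lower in all 17 other fits. Psme1 fell further than Psme4, since their log2 ratio of length-scaled counts went from -0.32, -0.18, -0.80 and -0.56 in WT to -1.08, -0.89, -0.89 and -0.97 in TAZG197V, without overlap. The difference of -0.49 gave an exact permutation p of 0.0286 (two-sided), the smallest possible, and 0.0286 after adjustment over the 4 ratios.

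Psme3 encodes PA28 gamma, a nuclear cap, and its values turned on 1 library. It was at 63.3, 58.4, 65.9 and 165 CPM in WT and at 69.4, 70.8, 66.1 and 64.3 CPM in TAZG197V. Only WT mouse 4, the library with 5.00% haemoglobin counts, was out of line. The log2 fold change was -0.38 ± 0.20 (SE, edgeR adjusted p = 0.172) with it and 0.12 without it (edgeR adjusted p = 0.162). Red cell markers were highest in that library, where their sum reached 55072 CPM, and lay between 227 and 571 CPM in the mutant libraries. Sums of leukocyte and lymphocyte markers were highest there too, at 184 and 63.9 CPM. The source of the high Psme3 value was not tested, and a single library cannot tell these cell types apart. Psmf1, which encodes the inhibitor PI31, was at 19.7, 21.6, 19.5 and 26.9 CPM in WT and at 27.2, 24.9, 23.3 and 22.3 CPM in TAZG197V. WT mouse 4 was again the highest of its group, the groups overlapped, and the gene did not pass the test (log2 fold change 0.14 ± 0.12, SE, edgeR adjusted p = 0.362). Without WT mouse 4 its log2 fold change was 0.28 with an edgeR adjusted p of 0.0313, and it was then called higher.

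**Figure D3:**
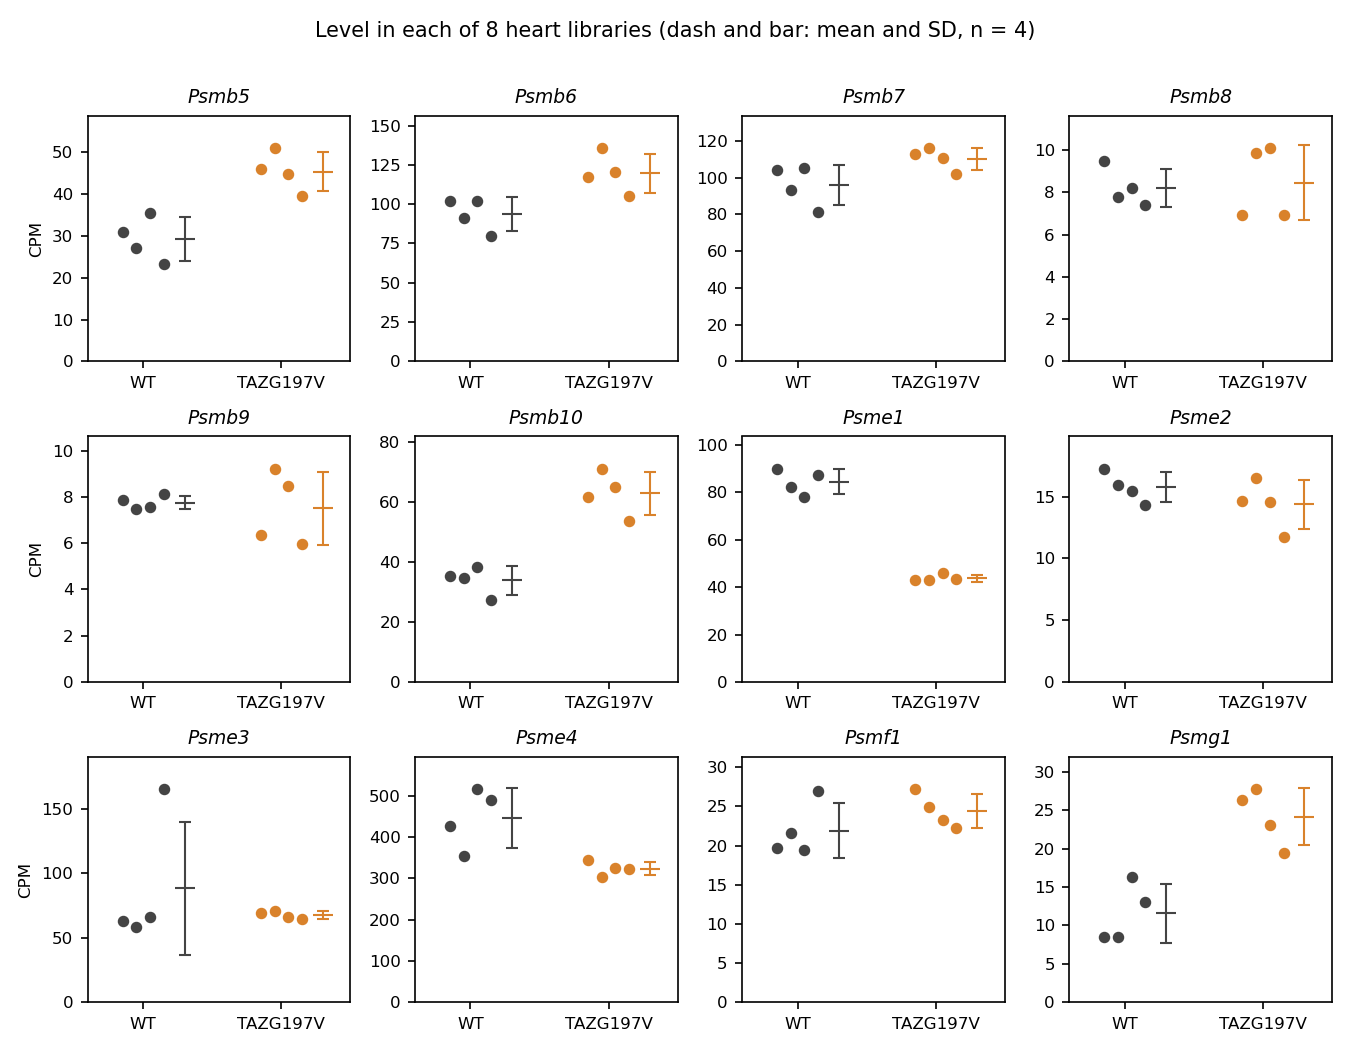
Level in CPM (y axes from 0) of the 6 cutting subunits, the 4 cap genes, the inhibitor gene Psmf1 and the chaperone gene Psmg1 in each WT and TAZG197V library, with the mean and SD of 4 mice beside the points. Psmb5, Psmb6, Psmb10 and Psmg1 are higher and Psme1 and Psme4 lower in all TAZG197V libraries, and the single high point of Psme3 is the library of WT mouse 4.

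No marker of the other cell types was called higher. Among all genes tested, 18.5% were called higher and 15.1% lower. Of 4 endothelial markers 2 were called lower, with sums of 566 to 813 CPM in WT and 453 to 597 CPM in TAZG197V. Of 4 fibroblast markers 3 were called lower, with sums of 827 to 1336 CPM in WT and 566 to 770 CPM in TAZG197V. Of 6 heart muscle markers 3 were called lower, and so were all 6 red cell markers, whose groups overlapped. The red cell calls rested on the library of WT mouse 4, without which the sums were 346 to 1065 CPM in WT and none of the 6 was called, while 2 endothelial, 3 fibroblast and 4 heart muscle markers were called lower. No defining marker in these lists was at 0 in every library. Their part in the fall of Psme1 and Psme4 was not tested. Without the library of WT mouse 4, 30 members were called higher and 2 lower, and without both number 4 libraries 32 and 2. Within lane 7 the median difference of mean log2 CPM over the members was 0.36, with 43 of 47 positive, and within lane 8 it was 0.30, with 41 positive.

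The 3 genes of the family that were set aside had low counts. Psma8, an alpha subunit known from the testis, had 19 to 66 counts per library, Psme2b had 10 to 29, and Psmb11 had 0.

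Genes outside the family that work with the proteasome were also examined. Of 13 accessory factors tested, 6 were called higher and none lower, beside 18.5% and 15.1% of all genes tested. Without WT mouse 4, 4 were called higher. Sem1, a small subunit of the 19S lid that the naming rule does not reach, rose from 99.4 to 213 CPM (log2 fold change 1.10 ± 0.06, SE, edgeR adjusted p = 8.32e-06), more than any member. Uchl5, a deubiquitinase of the 19S base, rose (log2 fold change 0.69 ± 0.08, SE, edgeR adjusted p = 0.000365), as did Zfand2b (0.82 ± 0.10) and Txnl1 (0.37 ± 0.07). Pomp, which matures the 20S core, was at 73.2 CPM in WT and 78.5 CPM in TAZG197V and did not pass the test (edgeR adjusted p = 0.238). A further listed gene, Paaf1, was not analysed here.

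NRF1 (Nfe2l1) is the transcription factor that raises proteasome genes when proteasome capacity is short, and NRF2 (Nfe2l2) is its relative in the response to oxidants. Of 11 tested genes around NRF1, 6 were called higher and 1 lower, beside 18.5% and 15.1% of all genes tested. Nfe2l1 rose from 696 to 904 CPM (log2 fold change 0.37 ± 0.07, SE, edgeR adjusted p = 0.00349) and Nfe2l2 from 68.2 to 92.0 CPM (0.48 ± 0.07, edgeR adjusted p = 0.00144). Mafg, which pairs with both factors on DNA, rose from 55.3 to 84.5 CPM, and Vcp, the ATPase that extracts NRF1 from the endoplasmic reticulum, from 52.8 to 69.7 CPM. Fbxw7, a ubiquitin ligase subunit for which NRF1 is a target, was the gene called lower, from 68.2 to 47.5 CPM. Ddi2, the protease that cleaves NRF1, was at 57.8 and 58.1 CPM (edgeR adjusted p = 0.866). These are RNA levels, and the activity of NRF1 depends on steps after its RNA that were not measured.

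Among 12 genes of ubiquitin and its shuttle receptors, 6 were called higher and none lower, beside 18.5% and 15.1% of all genes tested. Sqstm1, the p62 receptor that links ubiquitin to autophagy, rose from 350 to 765 CPM (log2 fold change 1.14 ± 0.07, SE, edgeR adjusted p = 2.22e-05). Rad23b, a shuttle that brings ubiquitinated proteins to the proteasome, rose from 112 to 169 CPM. The ubiquitin fusion gene Rps27a rose by 0.65 on the log2 scale, and the stress-inducible polyubiquitin gene Ubb did not pass the test. Ubb was at 55.8, 58.5, 57.5 and 97.0 CPM in WT and at 60.8, 70.7, 59.2 and 65.3 CPM in TAZG197V. WT mouse 4 alone set its sign, since the log2 fold change was -0.09 ± 0.13 (SE) with that library and 0.16 without it (edgeR adjusted p = 0.618 and 0.137). Rps27a has many near-identical copies, so its count is uncertain. Of 10 ubiquitin ligases known from muscle, 3 were called higher (Fbxo30, Trim54 and Mdm2) and 1 lower (Cblb). The same shares of all genes tested, 18.5% and 15.1%, stand beside these counts. The atrophy ligases Trim63 and Fbxo32 did not pass the test, with log2 fold changes of -0.27 ± 0.13 and 0.17 ± 0.10 (SE). Trim63 was at 239, 209, 206 and 137 CPM in WT and at 175, 160, 140 and 154 CPM in TAZG197V. WT mouse 4 was the lowest of all 8, and without it the log2 fold change was -0.47 (edgeR adjusted p = 0.00481), so that Trim63 was called and 2 ligases were lower.

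**Figure D4:**
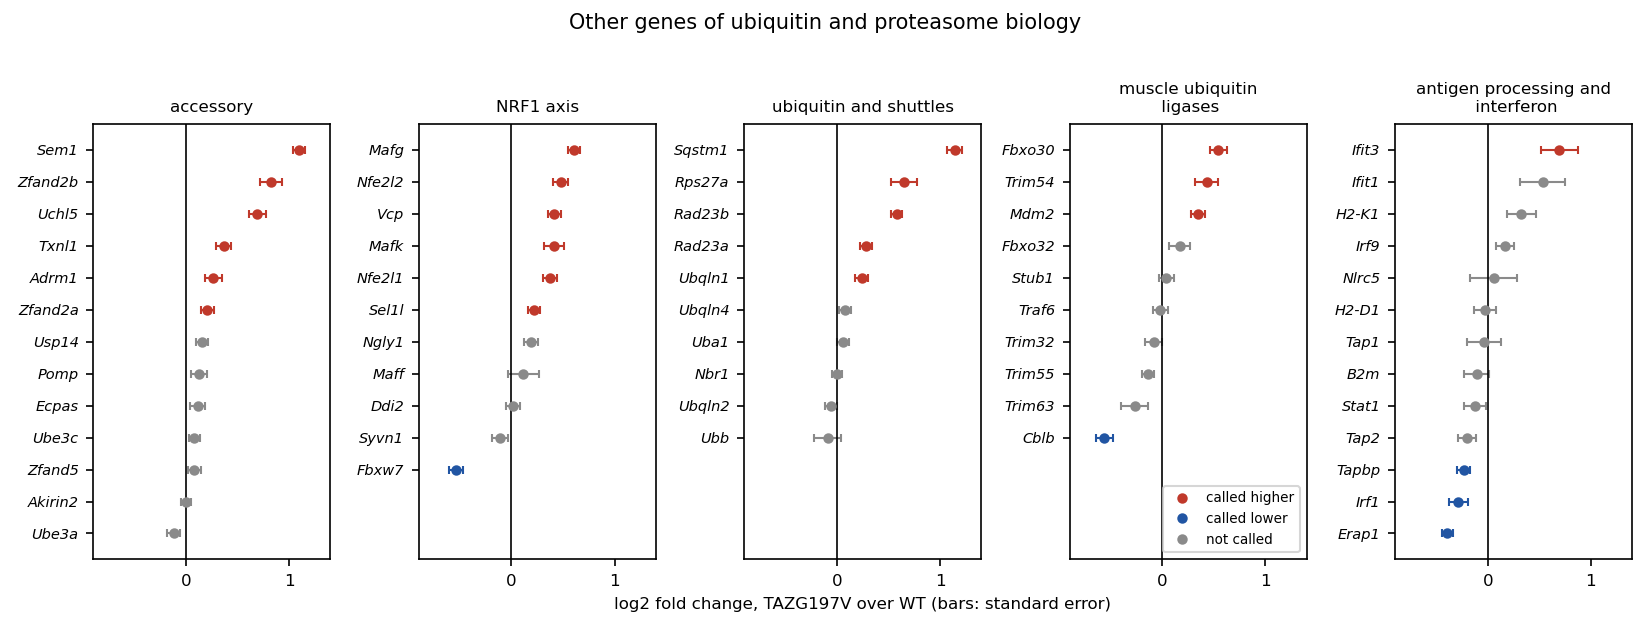
Log2 fold change (TAZG197V over WT, x axis) with its standard error for most genes of 5 lists around the proteasome, coloured by call. Sem1 in the accessory list and Sqstm1 in the ubiquitin list lie farthest to the right, and Cblb and Fbxw7 lie farthest to the left.

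The start regions of the family were searched for 4 motifs on both strands, in 300-base windows from 250 bases before to 50 after the RefSeq start. A window was found for 40 of the members, some with more than 1 start, which gave 43 promoters. TGACNNNGC was in 6 of 43 (14.0%) and in 12.4% of all 32851 promoters. The 6 were Psmb5, Psmb6, Psmc6, Psmd9, Psmd12 and Psme4, so the match stood both in genes called higher and in 1 called lower. The ISRE core was in 5 (11.6%, Psmb3, Psmd4, Psmd9, Psmg4 and Psme1), against 3.44% of all promoters. TGATGNAA, the letters of a cyclic AMP or ATF4 type site, was in 1, that of Psmd13 (2.33%, against 3.97% of all). CCAAT, the site of NF-Y, was in 14 (32.6%, against 37.4% of all). Of 29 promoters of members called higher, 5 held TGACNNNGC. A match is a description of the letters and shows no binding.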

How the data were processed

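RNA sequencing libraries of 4 WT and 4 TAZG197V mouse hearts were analysed, 1 per mouse. According to the sample labels and methods, the authors prepared libraries from 500 ng of total RNA, sequenced 50-base single-end reads, aligned them to mm10 with STAR 2.7.3a (at most 2 mismatches) and counted exonic reads with featureCounts (Subread 2.0.0). The deposited values are raw counts per Ensembl gene. Which annotation release was used, whether strand was considered and how multiply aligned reads were treated were not given in the sources used here. The 92 ERCC spike-in rows summed to 0 counts and were left out.

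Symbols came from GENCODE M21 (GRCm38), which named 55230 of 55471 gene IDs. Counts were filtered with filterByExpr, scaled by TMM and tested in R 4.3.3 by edgeR 4.0.16 (quasi-likelihood F-test), two-sided, with 2 surrogate variables (svaseq, sva 3.50.0, seed 1, genotype protected) and Benjamini-Hochberg adjustment over 15084 genes. The SE is the log2 fold change over the square root of F. The mean scaled count of a call uses size factors from the TMM-scaled library totals. Levels are TMM-scaled CPM, or RPKM over joined exon lengths, with the SD of 4 mice. Ratios used a pseudocount of 0.5 counts and an exact permutation test over mice. On simulated counts for 15549 genes, 67 of 100 genes changed by 0.5 (log2) and 100 of 100 changed by 1 were called, with 4 false calls. The simulation gave every gene the same dispersion and held no lane effect or blood-rich library. It therefore does not give the rate of false calls in these data. The median change of the members, 0.33, was below the smallest size simulated. Depth was 23055689 to 36301031 counts per library, and the spread between mice, not counting error, sets the precision of all but the low genes.

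Values in every library are given for the 6 largest called changes, the cutting subunits, Psme1, Psme2, Psme4, Psmf1, Psmd4 and Psmb11. Psme3 was added after its values were seen. From each list Nfe2l1, Nfe2l2 and up to 4 called genes are named. Other list genes named (Pomp, Ddi2, Tap1, Ubb, Trim63 and Fbxo32) were chosen after their values were seen. Some list genes are counted but not reported here by name. The members, roles, lists and tests were chosen with earlier results of these data known. Alternatives were DESeq2 1.42.0, other covariates, scaling, filters and thresholds, and libraries left out. Promoters are from RefSeq (GRCm38.p6), with no entry for 7 members.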

Additional observations from a re-analysis of the deposited data

Results flagged for a closer look

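A library far from the other 3 of its genotype was looked for in 102 sets of 4 values (Dixon's test), where chance gives about 5.1, and 2 were found. Psme3 stood at 165.1 CPM in WT mouse 4, against 58.4 to 65.9 CPM in the other WT mice, and this is the library with 5.00% haemoglobin counts. Psme1 stood at 46.05 CPM in TAZG197V mouse 3, against 42.9 to 43.3 CPM in the other mutant mice, a deviation that is small beside the difference from the WT level of 84.5 CPM.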

How the results depend on the processing

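Over 17 other fits (DESeq2, other covariates, scaling, filters and libraries left out) the members called higher numbered 27 to 33 and those called lower 2, Psme1 and Psme4. A fold threshold of 1.5 left 9 higher and 1 lower, beside 6.62% and 5.60% of all genes tested. With the replicate block 30 were higher and 2 lower, and Psmb7 and Psmd10 were no longer called (edgeR adjusted p = 0.0604 and 0.0532). Deviations of mice with the same number correlated at 0.28, 0.04, 0.28 and 0.42 (mean 0.25), and those of the 12 pairs with different numbers at -0.46 to 0.32 (mean -0.06). Number 2 was under the 0.1 asked of every pair, and WT mouse 3 correlated better with mutant mice 1 and 2 than with mutant mouse 3, so the block was kept as an alternative. Whether the numbers mark a shared litter or day is not given. The calls least stable were those of Psmb7, Psma1, Psmd10, Psma2 and Psmb3, each of which missed a threshold in some fits with the same sign. No called member changed sign. Psmf1 was called when a number 4 library was left out, and Psmd2 (log2 fold change 0.23) without WT mouse 3. For the ratios the replicate block cannot change the differences (0.69 for Psmb10 to Psmb7, -0.62 for Psmb8 to Psmb5, -0.42 for Psmb9 to Psmb6, -0.49 for Psme1 to Psme4), and its exact sign-flip p of 0.125 is the smallest possible, so it says nothing about their stability. Without both number 4 libraries they were 0.70, -0.54, -0.28 and -0.52, with an exact permutation p of 0.1, the smallest that 3 against 3 mice allow. With 1 library left out they ranged from 0.65 to 0.72, from -0.72 to -0.52, from -0.48 to -0.33 and from -0.61 to -0.40, with adjusted exact permutation p between 0.0286 and 0.0571. Pathway lists were rerun under the same settings, a choice made after seeing the data, and 4 to 6 accessory genes, 4 to 6 around NRF1, 5 to 6 of ubiquitin and 2 to 3 muscle ligases were called higher, and 1 to 2 ligases were called lower. Counts were lowest for Psmc3ip, Psmg3 and Psmg4, where counting error weighs most.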
